A study of Mus musculus with 8 samples.

Results

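The interferon response genes described here were 40 genes chosen by their symbols, with the OAS family of interferon-induced synthetases left out. All 40 were on the array and all 40 passed the filter on dim probes, among 34839 gene names on the array and 22918 genes tested. The cells were mature adipocytes grown from 3T3-L1, a mouse preadipocyte line, kept for 72 h with physiological saline or with 1 of 3 asbestos fibres, chrysotile, crocidolite or amosite, each at 10 mg/cm2 as the labels give it. The unit of that dose was not checked against any other source. Each of the 4 groups had 2 arrays, numbered 1 and 2 in the labels, and no group with an inert particle was analysed here. A level here is the log2 of the processed Cy3 intensity of the brightest probe of a gene minus the 75th percentile of that array, and a change is a difference between such levels. The labels do not say that the 2 arrays of a group came from separate cultures, and a p-value here stands against the spread of these arrays alone, which may be technical.

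On every array, between 56.2% and 62.8% of the 55681 probes were well above background. All 8 arrays lay on 1 slide, with the replicate number as the slide column and the group as the slide row. Row and group therefore cannot be told apart, and neither can column and replicate number. All 10 adipocyte markers listed, Adipoq, Fabp4 and Plin1 among them, were well above background on all 8 arrays. Of the 10 leukocyte and macrophage markers with a name on the array, Lyz2 was above background on 0 arrays, Tyrobp on 1, Emr1 on 3 and Ptprc on 4. The other 6, Itgam, Csf1r, Cd14, Cd68, Mpeg1 and Fcer1g, were above background on all 8 arrays, with Itgam at 5.74 to 6.04 and Csf1r at 2.11 to 2.92. RNA came from whole cultures, in which fewer cells of a type and less RNA per cell cannot be told apart.

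Type I interferons bind a receptor shared by most cells and, through the kinases JAK1 and TYK2, activate a complex holding STAT2 and IRF9 that binds the interferon-stimulated response element in promoters. Interferon gamma uses another receptor and acts through the gamma-activated site, and it is best known for raising the immunoproteasome, the peptide transporter and the GTPases that attack vacuoles of parasites. Fat cells carry receptors for both kinds of interferon, and many of these genes are also expressed at a low tonic level without added interferon.

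RefSeq promoters (GRCm38.p6, 250 bases before to 50 bases after the start site) were matched for 30 of the 40 genes, and Dhx58, Zbp1, Mx1, Mx2, Rtp4, Usp18, Parp9, Parp14, Iigp1 and Tap2 had no entry in the table used. The core of the interferon-stimulated response element, searched on both strands as GAAA, any 2 bases and GAAA, was found in the window of 14 of the 30 (46.7%), against 3.99% of all 27025 genes in the table. The gamma-activated site, searched as TTCNNNGAA on both strands, was found for 7 of the 30 (23.3%), against 9.55% of all genes. The 160 bases before the start site are shown for 5 antiviral genes that hold the first motif, since they are textbook targets of the pathway. The array values of all of them but Ifit3 are described further on. Capitals mark every match to that core on either strand, so that a match on the other strand reads TTTC, any 2 bases and TTTC, and overlapping matches merge. The capitals of Bst2 overlap a match to the gamma-activated site.
Isg15 (chr4:156200819-156200978, minus strand): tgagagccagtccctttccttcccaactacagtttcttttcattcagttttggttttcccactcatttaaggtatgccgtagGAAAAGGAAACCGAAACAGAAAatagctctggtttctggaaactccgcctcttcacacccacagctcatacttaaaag
Ifit1 (chr19:34640729-34640888, plus strand): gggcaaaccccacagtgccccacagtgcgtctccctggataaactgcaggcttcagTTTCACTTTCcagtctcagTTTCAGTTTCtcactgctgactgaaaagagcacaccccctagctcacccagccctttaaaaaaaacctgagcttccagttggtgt
Ifit3 (chr19:34583369-34583528, plus strand): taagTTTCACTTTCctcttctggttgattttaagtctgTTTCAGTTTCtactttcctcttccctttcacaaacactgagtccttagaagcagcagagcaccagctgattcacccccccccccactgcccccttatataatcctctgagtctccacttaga
Rsad2 (chr12:26456453-26456612, minus strand): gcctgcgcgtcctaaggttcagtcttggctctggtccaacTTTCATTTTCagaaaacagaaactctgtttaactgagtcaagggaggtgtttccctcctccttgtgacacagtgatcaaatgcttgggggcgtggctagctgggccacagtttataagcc
Bst2 (chr8:71537473-71537632, minus strand): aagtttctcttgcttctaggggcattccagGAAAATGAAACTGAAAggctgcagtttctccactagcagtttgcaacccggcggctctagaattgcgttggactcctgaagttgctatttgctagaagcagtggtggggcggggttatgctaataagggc
Isg15 held 3 overlapping matches that began 66 to 78 bases before the start site. Ifit1, Ifit3 and Bst2 held 2 each, and Rsad2 held 1, which began 120 bases before it. A match is a description of the letters and not a measured binding site.

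Most of the 40 genes were low on the same arrays and high on the same arrays. The median deviation of the 40 genes from their own 8-array means was -0.49 on saline 1 and -0.43 on amosite 1, against 0.38 on chrysotile 2 and 0.28 on saline 2. Chrysotile 1 (0.04), crocidolite 1 (0.17), crocidolite 2 (0.16) and amosite 2 (-0.08) lay between. The same median over all 22918 genes stayed between -0.02 and 0.03 on every array. The 2 saline arrays lay near opposite ends of this range, while the medians of the crocidolite arrays lay close together. Single genes still differed between the crocidolite arrays, with number 2 minus number 1 from -0.79 (Cmpk2) to 1.50 (Tap2).

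Saline 1 was the lowest array for 23 of the 40 genes and amosite 1 for 15, where those arrays were the lowest for 19.6% and 9.06% of all genes. Chrysotile 2 was the highest array for 23 and saline 2 for 9, against 10.2% and 21% of all genes. The remaining 2 lowest values were on amosite 2, and the remaining highest values were on crocidolite 1 (6 genes) and crocidolite 2 (2 genes).

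**Figure D1:**
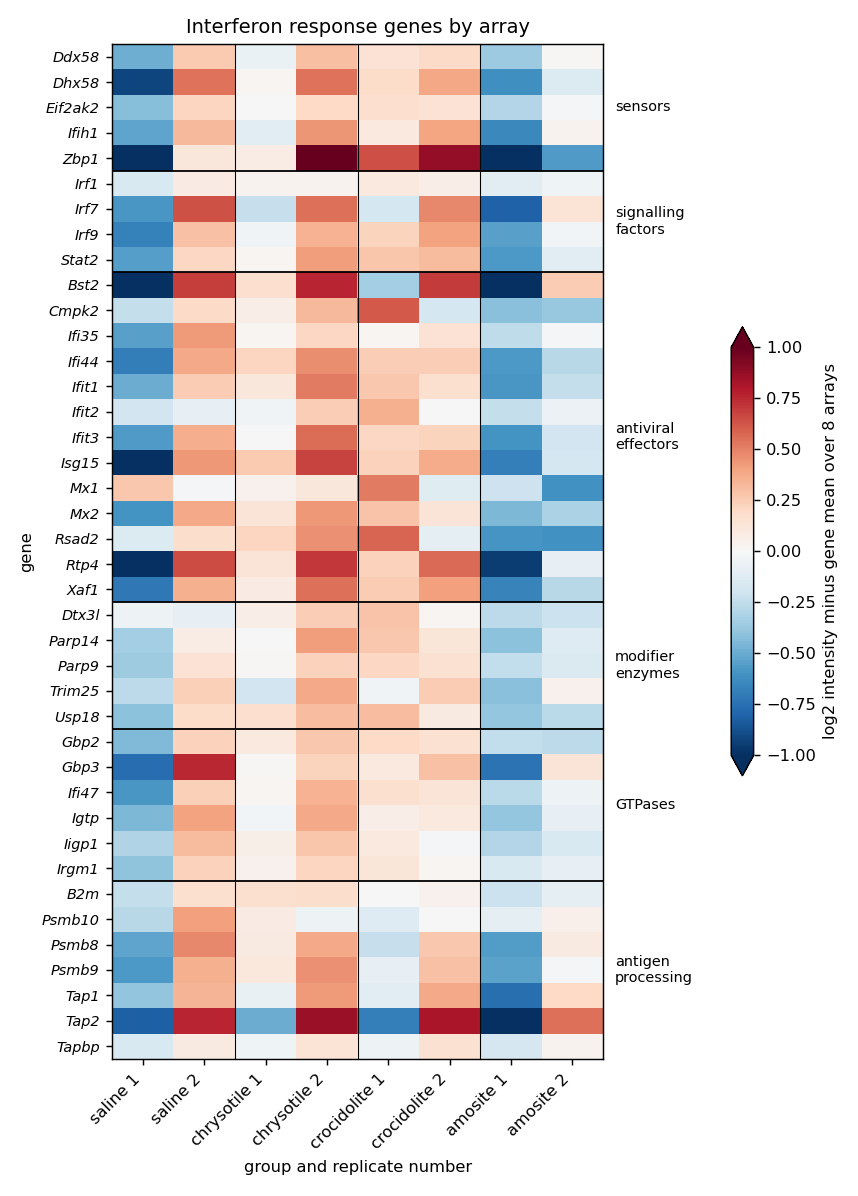
Colour shows each gene's log2 intensity minus its mean over the 8 arrays (colour scale cut at 1 in either direction), with genes in rows by role and arrays in columns by group and replicate number. Saline 1 and amosite 1 are blue for nearly all rows (medians -0.49 and -0.43), and chrysotile 2 is red for nearly all rows (median 0.38).

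Most interferon response genes stood higher on the arrays numbered 2 than on those numbered 1. With the 4 groups as terms in the limma fit, 36 of the 40 genes were higher on the number 2 arrays and 4 were lower, with a median of 0.38, where the median of all genes was 0. Tap2, Irf7, Tap1 and Trim25 passed an adjusted p of 0.05, all 4 higher, where 3.06% of all genes passed (347 higher and 355 lower). At an unadjusted limma p of 0.05, 20 of the 40 were higher and 0 lower, where 12.1% of all genes were higher and 13.6% lower. The sign was the same in all 4 groups for 23 genes, each higher on number 2, where 17.4% of all genes were higher in all 4 groups and 19.4% lower. The labels do not say what the number stands for, and it cannot be told apart from the slide column.

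Antigen processing held the largest single difference. Tap2, a chain of the transporter that carries peptides into the endoplasmic reticulum (probe on chromosome 17, 34353116 to 34353175, plus strand, mm9), stood at 2.42, 2.74, 2.55 and 2.24 on the number 1 arrays of saline, chrysotile, crocidolite and amosite, and at 4.0, 4.10, 4.05 and 3.79 on the number 2 arrays. The 2 sets of 4 arrays did not overlap, and the 4 differences were close to one another. Tap2 rose by 1.50 ± 0.07 (SE, 8 arrays, limma adjusted p = 0.0151), and its p ranked 5 among the 22918 genes. Tap1, the partner chain (chromosome 17, 34330854 to 34330913, plus strand, mm9), stood at -0.64, -0.32, -0.36 and -1.0 on number 1 and at 0.09, 0.18, 0.13 and -0.05 on number 2. It rose by 0.67 ± 0.10 (limma adjusted p = 0.0436), and again every number 2 array lay above every number 1 array.

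Psmb8, an immunoproteasome subunit, stood at 0.72, 1.34, 1.02 and 0.69 on number 1 and at 1.73, 1.63, 1.52 and 1.34 on number 2. Its difference was 0.61 ± 0.13 (limma adjusted p = 0.0693), and that of Psmb9, another subunit, was 0.54 ± 0.12 (limma adjusted p = 0.0746), so that neither passed. The probes of Psmb9, Tap1, Psmb8 and Tap2 lie next to each other on chromosome 17. B2m, the light chain of class I molecules, stood at 7.98 on saline 1, 8.38 on saline 2, 8.38 and 8.39 on chrysotile, 8.22 and 8.26 on crocidolite and 8.0 and 8.12 on amosite. Its difference with the number was 0.14, and that of the peptide editor Tapbp and of the subunit Psmb10 was 0.21 each. All 7 antigen processing genes were higher on number 2, with a median of 0.54.

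Among the factors that carry the signal, Irf7, which amplifies type I interferon production (chromosome 7, 148450664 to 148451014, minus strand, mm9), stood at -0.01, 0.34, 0.40 and -0.24 on number 1 and at 1.21, 1.12, 1.05 and 0.71 on number 2. It rose by 0.90 ± 0.11 (limma adjusted p = 0.0337), and the number 2 arrays were all above the number 1 arrays. Stat2, a subunit of the response complex, stood at 2.52, 3.09, 3.35 and 2.50 on number 1 and at 3.28, 3.49, 3.39 and 2.97 on number 2. The amosite 2 value of Stat2 lay below the chrysotile 1 and crocidolite 1 values, so its sets overlapped, and its difference was 0.42. Irf9, the DNA-binding subunit of that complex, differed by 0.51, and Irf1 by 0.07.

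The sensors of foreign nucleic acid were all higher on number 2, with a median of 0.60. Ifih1, the sensor of long double-stranded RNA also called MDA5, stood at 0.02, 0.43, 0.64 and -0.10 on number 1 and at 0.87, 0.99, 0.94 and 0.58 on number 2. The difference of Ifih1 was 0.60 ± 0.11 (limma adjusted p = 0.0545), just short of the threshold. The differences of the other sensors were 0.77 for Zbp1, 0.67 for Dhx58, 0.39 for Ddx58 (the sensor RIG-I) and 0.27 for Eif2ak2, the kinase PKR. A second, dimmer probe of Zbp1 gave -0.28, so its probes disagreed.

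Among the antiviral effectors, Bst2, the tetherin that holds budding virions at the membrane (chromosome 8, 74058603 to 74058662, minus strand, mm9), stood at 3.34, 4.54, 4.03 and 3.16 on number 1 and at 5.06, 5.13, 5.07 and 4.62 on number 2. Every number 2 array was above every number 1 array, and the difference was 1.20 ± 0.20 (limma adjusted p = 0.0516). Rtp4 differed by 0.93, Isg15 by 0.65 and Xaf1 by 0.52, while Ifit2 (0.05), Cmpk2 (-0.01), Rsad2 (-0.04) and Mx1 (-0.31) lay near 0 or below. Over the 13 effectors the median was 0.38, with 10 higher.

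Among the modifier enzymes, Trim25, the ubiquitin ligase that activates RIG-I (chromosome 11, 88881521 to 88881580, plus strand, mm9), stood at 5.05, 5.12, 5.28 and 4.90 on number 1 and at 5.55, 5.69, 5.57 and 5.36 on number 2. It rose by 0.45 ± 0.07 (limma adjusted p = 0.0495) by its brightest probe, without overlap. A second probe of Trim25, also above background, differed by 0.01, so the probes disagreed. The other modifier enzymes lay between -0.02 (Dtx3l) and 0.24 (Parp14), and the 6 GTPases between 0.19 (Gbp2 and Irgm1) and 0.70 (Gbp3).

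The size of the number difference was unequal among the groups. The median of number 2 minus number 1 over the 40 genes was 0.75 in saline (38 of 40 higher), 0.31 in chrysotile (39 higher), 0.31 in amosite (37 higher) and 0.04 in crocidolite (24 higher). The medians of all genes were 0.04, -0.06, -0.01 and 0.00 in the same order. It was largest in saline for 35 of the 40 genes, a count that was not made over all genes. Over all genes too, the 2 saline arrays differed the most (SD of the differences 0.543, against 0.374 to 0.434 in the other groups). The difference between groups was not tested. Leaving out either array of a group gave the same fit of the number, since a lone array holds no such difference. Leaving out any 1 of the 8 arrays left the median between 0.21 and 0.50 and the members past an unadjusted p of 0.05 between 11 (without either amosite array, where 8.52% of all genes were higher) and 24 (without either crocidolite array, where 7.41% were), but 0 of the 40 and 0 of all genes then passed the adjusted threshold. With normexp background correction 10 of the 40 passed (2270 of all genes), and with no filter on dim probes 0 of the 40 passed (0 of all genes).

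**Figure D2:**
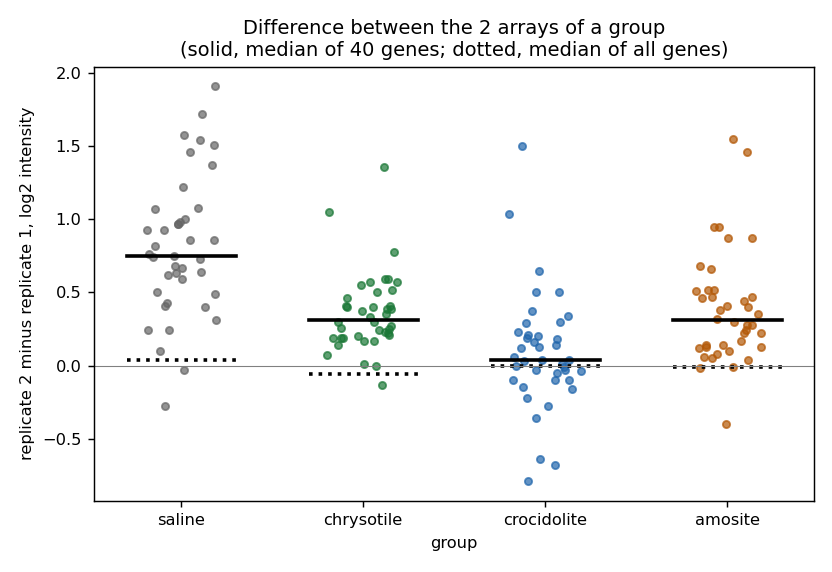
Each point is 1 of the 40 genes, plotted as the log2 intensity on array 2 minus that on array 1 of the same group. The solid bars are the medians of the 40 genes (0.75, 0.31, 0.04 and 0.31 for saline, chrysotile, crocidolite and amosite), and the dotted bars are the medians of all genes, which lie between -0.06 and 0.04.

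Markers of cell state differed with the number in the same fit. Of the 10 adipocyte markers, 9 were higher on number 2 with a median of 0.17, and Lep, the hormone leptin, passed (0.91), while Retn (0.62) and Plin1 (0.44) did not. Of the 7 preadipocyte and fibroblast markers, 6 were lower with a median of -0.27, and Thy1 passed (-0.69), while Dlk1 (-0.75) and Pdgfra (-0.43) did not. Their summed linear level, in multiples of the 75th percentile, ran from 336 to 412 on number 1 and from 226 to 273 on number 2. Dlk1 alone made up most of this sum on every array. The adipocyte sum ran from 3370 to 3640 on number 1. On number 2 it was 4340 on saline, and the 3510 to 3630 of the fibre groups lay within the number 1 range. Of the 7 leukocyte markers tested, 5 were higher on number 2, with a median of 0.15, and Mpeg1, a perforin-like macrophage gene that interferon also raises, passed (1.38). The leukocyte sum ran from 62.0 to 66.8 on number 1 and from 67.1 to 75.8 on number 2, and Itgam alone made up most of it on every array. The part of these markers in the difference was not tested.

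The comparison of each fibre with saline asks what the fibre did to the adipocytes, and the 3 comparisons share the same 2 saline arrays. With chrysotile, the median of the 40 genes was 0.25 above saline (38 higher, 2 lower), with crocidolite 0.27 above (39 higher, 1 lower), and with amosite -0.19 (1 higher, 39 lower). The medians of all genes were -0.01, -0.02 and -0.02. By limma, 0 of the 40 passed an adjusted p of 0.05 in each of the 3, where 0% of all genes passed too. The smallest adjusted p of a member was 0.898 with chrysotile, 0.678 with crocidolite and 1 with amosite.

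At an unadjusted limma p of 0.05, 0 of the 40 passed with chrysotile, where 2.83% of all genes were higher and 2.64% lower. With crocidolite 1 passed, Zbp1, higher, where 2.87% of all genes did. With amosite 1 passed, Rsad2, lower, where 1.57% of all genes did. With the replicate number as a block, Zbp1 passed with chrysotile (limma unadjusted p = 0.011), Zbp1 and Stat2 with crocidolite (0.00636 and 0.0452), and with amosite Mx1 (0.0285) in place of Rsad2 (0.0631). Of all 22918 genes, 1272 were then higher with chrysotile and 1289 with crocidolite, and 637 were lower with amosite. The adjusted p with the block was 0.435 for Zbp1 with chrysotile, 0.283 for Zbp1 and 0.369 for Stat2 with crocidolite, and 1 for Mx1 and Rsad2 with amosite. Both fibre arrays lay above both saline arrays for 3 genes with chrysotile and 6 with crocidolite, where 14.3% and 14.5% of all genes did, so these shares are near or under the background. Both amosite arrays lay below both saline arrays for 4 genes, where 12.9% of all genes did.

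Within a replicate number the medians differed between the pairs. Chrysotile minus saline had a median of 0.43 within number 1 (39 of 40 higher) and of 0.09 within number 2 (30 of 40). Crocidolite minus saline had 0.61 (40 of 40) and -0.08 (14 of 40). Amosite minus saline had 0.02 (23 of 40) and -0.41 (1 of 40). The genes higher within both numbers were 29 with chrysotile and 14 with crocidolite, against 23.9% and 25% of all genes, and 16 were lower within both with amosite, against 26.5%.

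**Figure D3:**
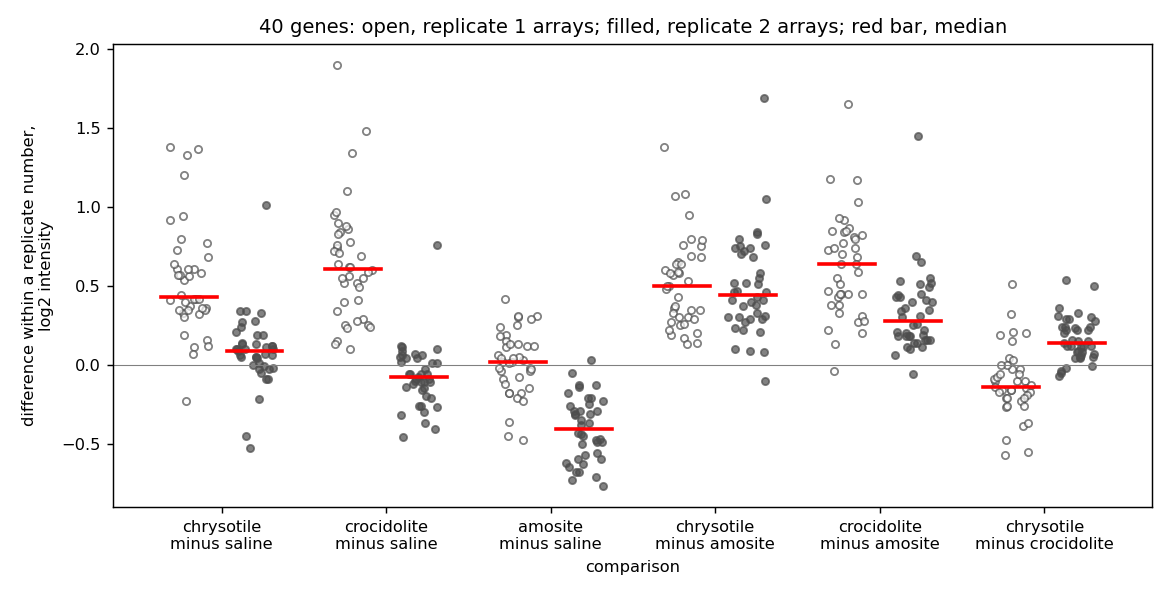
Each point is 1 of the 40 genes, plotted as the difference in log2 intensity between 2 groups within replicate number 1 (open) or 2 (filled), with the median as a red bar. Medians against saline shift between the numbers (0.43 and 0.09, 0.61 and -0.08, 0.02 and -0.41), while those of chrysotile and crocidolite against amosite are above 0 within both numbers.

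The values against saline rested on the saline arrays. Without saline 1, the median was -0.08 with chrysotile, -0.11 with crocidolite and -0.58 with amosite. Without saline 2, it was 0.65, 0.62 and 0.22. The members past an unadjusted limma p of 0.05 were 23 with chrysotile and 20 with crocidolite without saline 2, and 17 with amosite without saline 1, with 0 past the adjusted threshold in each. Of all genes, 6.65% and 6.37% were higher at that threshold in the first 2 of these fits, and 2.02% were lower in the third. Without amosite 1 the amosite median was 0.03, without amosite 2 it was -0.36, and without chrysotile 1 or 2 the chrysotile median was 0.43 or 0.12. Centring on the array median in place of the 75th percentile kept the signs of the 3 medians (0.30, 0.45 and -0.13), but moved the median of all genes in crocidolite against saline to 0.16.

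Markers of other cell types also differed from saline. Of the 7 leukocyte markers tested, 5 were higher with chrysotile (median 0.50) and 5 with crocidolite (median 0.25), with Cd68 at 0.60 and 0.41 and Cd14 at 0.70 and 0.96, and 4 with amosite (median 0.13). Csf1r stood at -0.45, -0.37 and -0.46, and the summed leukocyte level on saline, mostly that of Itgam, was 66.8 and 74.4. Of the 7 preadipocyte markers, 5 were higher with chrysotile, 5 with crocidolite and 2 with amosite, with medians of 0.07, 0.23 and -0.01. S100a4 (1.25, 1.06 and 0.91) and Ly6a (0.82, 0.78 and -0.01) were the highest with chrysotile and crocidolite. Dlk1 (-0.23, -0.38 and -0.01) and Cd34 (-0.09, -0.03 and -0.07) were lower. Of the 10 adipocyte markers, 9, 8 and 9 were lower (medians -0.13, -0.17 and -0.11). By limma 0 of these markers passed an adjusted p of 0.05 against saline, and their part in the values of the 40 genes was not tested.

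Zbp1, the sensor of Z-form nucleic acid that can start necroptosis (chromosome 2, 173039307 to 173039366, minus strand, mm9), had the largest changes of the 40 with chrysotile and crocidolite. It stood at -0.55 and 0.82 on saline, 0.78 and 1.83 on chrysotile, 1.35 and 1.59 on crocidolite and -0.30 and 0.14 on amosite. Both crocidolite arrays were above both saline arrays, and chrysotile 1 was just below saline 2. The change was 1.33 ± 0.52 with crocidolite (limma unadjusted p = 0.0412, adjusted p = 0.678) and 1.17 ± 0.52 with chrysotile (limma unadjusted p = 0.0641, adjusted p = 0.898). A second, dim probe of Zbp1 gave 0.31 and 0.47.

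Isg15, a ubiquitin-like protein that is joined to other proteins (chromosome 4, 155573649 to 155573708, minus strand, mm9), stood at 3.57 and 5.11 on saline, 4.94 and 5.35 on chrysotile, 4.91 and 5.05 on crocidolite and 3.99 and 4.50 on amosite. Saline 1 was the lowest array and saline 2 was above both crocidolite arrays. Its change was 0.81 ± 0.49 with chrysotile, where limma gave an adjusted p of 0.913, and was 0.04 without saline 1. Usp18, the protease that removes Isg15 from proteins and blocks the type I receptor, stood at 2.06 and 2.65 on saline, 2.64 and 2.78 on chrysotile, 2.78 and 2.56 on crocidolite and 2.08 and 2.20 on amosite. Saline 2 was close to the chrysotile and crocidolite arrays, and saline 1 was close to the amosite arrays.

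Ifit1, which binds viral RNA caps, stood at 1.93 and 2.68 on saline, 2.54 and 2.95 on chrysotile, 2.70 and 2.59 on crocidolite and 1.85 and 2.19 on amosite. Ifit2, of the same family and also on chromosome 19, stood at -1.17 and -1.06 on saline, -1.01 and -0.73 on chrysotile, -0.62 and -0.97 on crocidolite and -1.21 and -1.03 on amosite. For Ifit2, both chrysotile and both crocidolite arrays were above both saline arrays, by means of 0.25 and 0.32, while Ifit1 overlapped.

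The genes of 1 stretch of chromosome 16 that encode enzymes of ADP-ribose and ubiquitin transfer had small changes. Dtx3l stood at 2.40 and 2.37 on saline, 2.52 and 2.70 on chrysotile, 2.74 and 2.47 on crocidolite and 2.19 and 2.24 on amosite. Parp9, its binding partner, stood at 3.04 and 3.54, 3.41 and 3.63, 3.60 and 3.55, and 3.15 and 3.25 on the same groups, and Parp14 at 1.96 and 2.38, 2.31 and 2.72, 2.57 and 2.42, and 1.89 and 2.17. For Dtx3l both chrysotile and both crocidolite arrays were above saline and both amosite arrays below it, by means of 0.23, 0.22 and -0.17. The dimmer Dtx3l probes gave -0.01 and 0.08 with chrysotile, -0.01 and 0.19 with crocidolite and -0.21 and 0.09 with amosite, so the probes disagreed, and the mean of all its probes gave 0.10, 0.13 and -0.10. Parp9 and Parp14 were above saline on both crocidolite arrays by means of 0.28 and 0.32, and the mean of all Parp9 probes gave -0.09.

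Amosite arrays were the low ones for a second set of effectors. Rsad2, or viperin, an enzyme that makes a chain-terminating nucleotide, stood at -0.46 and -0.15 on saline, -0.11 and 0.13 on chrysotile, 0.26 and -0.42 on crocidolite and -0.91 and -0.93 on amosite. Both amosite arrays were below all 6 others, and the change from saline was -0.61 ± 0.24 (limma unadjusted p = 0.0445, adjusted p = 1, and unadjusted p = 0.0631 with the replicate block). Mx1, a GTPase that traps viral nucleoproteins, stood at 0.37 and 0.09 on saline, 0.14 and 0.21 on chrysotile, 0.62 and -0.02 on crocidolite and -0.11 and -0.51 on amosite. It too was lower on both amosite arrays than on all 6 others, with a change from saline of -0.54 ± 0.25, an unadjusted limma p of 0.0701, or 0.0285 with the replicate block, and an adjusted p of 1 in both.

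Cmpk2, a mitochondrial nucleotide kinase next to Rsad2 on chromosome 12, stood at -1.19 and -0.76 on saline, -0.89 and -0.63 on chrysotile, -0.34 and -1.13 on crocidolite and -1.37 and -1.33 on amosite. Iigp1, an immunity-related GTPase, stood at 0.29 and 0.91, 0.65 and 0.87, 0.69 and 0.58, and 0.30 and 0.44 on the same groups. Gbp2, a guanylate-binding protein, stood at 2.12 and 2.79, 2.66 and 2.83, 2.76 and 2.71, and 2.31 and 2.30. Cmpk2 was lowest on the 2 amosite arrays, while Iigp1 and Gbp2 were lowest on saline 1, and their changes with amosite were -0.38, -0.22 and -0.15.

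**Figure D4:**
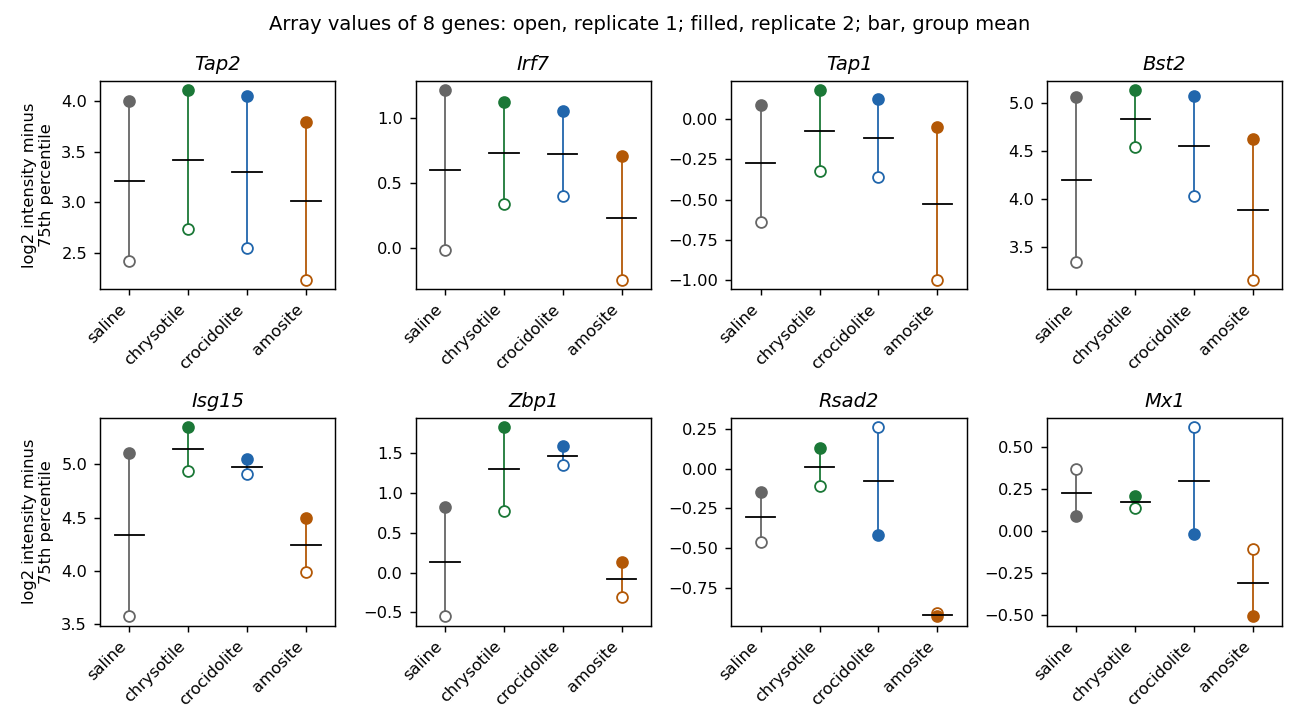
Log2 intensity minus the array's 75th percentile of 8 genes on each array (open, replicate 1; filled, replicate 2; bar, mean of the 2), with a separate scale for each gene. Tap2, Irf7, Tap1 and Bst2 have every filled point above every open point, and Rsad2 and Mx1 have both amosite points below the other 6 arrays.

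The fibres were also set against each other, in comparisons that do not use the saline arrays except for the shared estimate of spread. The 40 genes were higher with chrysotile than with amosite for 40 of 40, with a median of 0.46, and higher with crocidolite than with amosite for 39 of 40, with a median of 0.45, where the medians of all genes were 0.01 and -0.01. These 2 comparisons share the amosite arrays. By limma, 0 of the 40 passed an adjusted p of 0.05 in either, where 0% of all genes passed, and the smallest adjusted p of a member was 1 and 0.873. With the replicate number as a block 0 passed too, with smallest adjusted p of 0.560 and 0.428.

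At an unadjusted limma p of 0.05, 5 of the 40 were higher with chrysotile than amosite, where 2.63% of all genes were, and 5 with crocidolite, where 2.47% were. With the replicate block these became 20, where 5.48% of all genes passed, and 16, where 5.21% did. Both chrysotile arrays were above both amosite arrays for 28 genes, against 17.8% of all genes, and both crocidolite arrays for 30, against 17.5%. Within both replicate numbers, 39 were higher with chrysotile and 39 with crocidolite, against 34.6% and 33.5% of all genes. The pair medians were 0.50 and 0.44 for chrysotile, and 0.64 and 0.28 for crocidolite.

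Leaving out 1 array moved the median between 0.27 (without amosite 1) and 0.67 (without amosite 2) for chrysotile, and between 0.22 (without amosite 1) and 0.62 (without amosite 2) for crocidolite. The number past an unadjusted p of 0.05 ranged from 1 (without chrysotile 2 or amosite 1) to 18 (without either saline array) for chrysotile, where 1.85% or 2.4% and 3.35% of all genes were higher. For crocidolite it ranged from 0 (without crocidolite 1) to 16 (without either saline array), where 1.46% and 3.25% of all genes were higher. With centring on the array median the chrysotile value was 0.45, and the crocidolite value 0.57 where the median of all genes was 0.12.

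By role, the effectors differed the most between chrysotile and amosite, with a median of 0.72 over 13 genes, and both chrysotile arrays were above both amosite arrays for 12 of them. Medians were 0.47 for the 5 sensors, 0.47 for the 4 signalling factors, 0.40 for the 6 GTPases, 0.40 for the 7 antigen processing genes and 0.39 for the 5 modifier enzymes. Between crocidolite and amosite they were 0.62, 0.55, 0.54, 0.31, 0.26 and 0.39 in the same order of roles. The roles were not tested against each other.

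Rsad2 differed by 0.92 ± 0.24 between chrysotile and amosite (limma unadjusted p = 0.00826, adjusted p = 1) and by 0.84 ± 0.24 between crocidolite and amosite (limma unadjusted p = 0.0128, adjusted p = 0.873). Zbp1 differed by 1.38 ± 0.52 and 1.55 ± 0.52 in the same comparisons. Ifit1 (0.72 ± 0.28), Usp18 (0.57 ± 0.21) and Dtx3l (0.39 ± 0.14) were the others past the unadjusted threshold with chrysotile. With crocidolite the others were Mx1 (0.61 ± 0.25), Usp18 (0.53 ± 0.21) and Dtx3l (0.39 ± 0.14). The mean of all Dtx3l probes gave 0.20 and 0.23 in the 2 comparisons, and neither was past the unadjusted threshold. At the other end, Psmb10 differed by 0.04 and -0.05, and Tapbp and Irf1 by 0.11 each with chrysotile.

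Between chrysotile and crocidolite the median was 0.02 (24 higher, 16 lower), and 0 of the 40 passed the limma fit at an adjusted p of 0.05, where 0% of all genes passed. At an unadjusted p 0 of the 40 passed, where 2.12% of all genes were higher and 0.641% lower. The pair medians were -0.14 within number 1 (9 of 40 higher) and 0.14 within number 2 (35 of 40 higher), so the pairs pointed opposite ways. With centring on the array median the value was -0.12, where the median of all genes moved to -0.13.

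The genes with the largest number difference were not always those with the largest fibre difference. Tap2 had 1.50 with the number and 0.40 between chrysotile and amosite, while Rsad2 had -0.04 and 0.92, and Mx1 had -0.31 and 0.49. Zbp1, Bst2, Rtp4 and Isg15 were high on both by their brightest probes, with 0.77 and 1.38, 1.20 and 0.94, 0.93 and 0.93, and 0.65 and 0.90. The dimmer probe of Zbp1 gave -0.28 and 0.91. Over the 40 genes Pearson's r was 0.37 and Spearman's rho 0.41, a description across genes that share the chrysotile and amosite arrays in both measures.

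**Figure D5:**
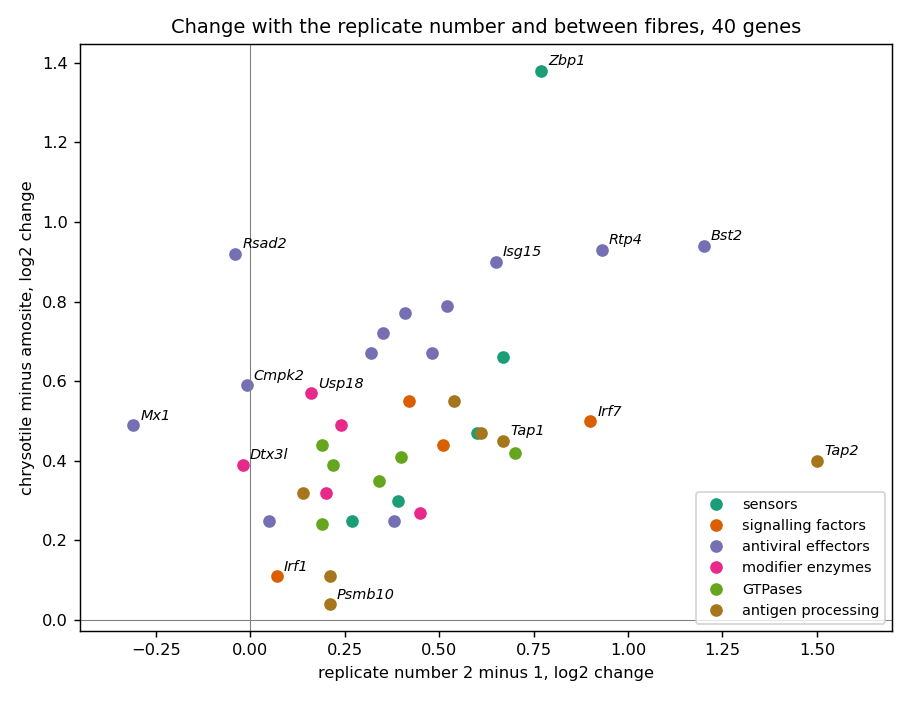
Each point is 1 of the 40 genes, with its log2 change between replicate numbers 2 and 1 on the horizontal axis and its log2 change between chrysotile and amosite on the vertical axis, coloured by role. All 40 points are above 0 on the vertical axis and 36 are above 0 on the horizontal axis, and Tap2 (1.50) and Zbp1 (1.38) are the outermost on each.

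Genes with and without the response element core in the promoter window were set side by side. The number difference had a median of 0.40 in the 14 with it and 0.40 in the 16 without, and the chrysotile to amosite difference 0.45 and 0.42. The crocidolite to amosite medians were 0.52 and 0.35. These splits were not tested.

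Upstream of the 40 genes, the interferon genes Ifnb1, Ifng and Ifne were not well above background on any of the 8 arrays, and neither was the factor Irf8. The receptor chains Ifnar1, Ifnar2, Ifngr1, Ifngr2 and Il10rb were above background on all 8. Ifnar2 stood at 3.63 and 3.61 on saline, 3.78 and 4.01 on chrysotile, 3.92 and 3.99 on crocidolite and 3.66 and 3.58 on amosite. Both chrysotile and both crocidolite arrays of Ifnar2 were above all saline and amosite arrays, by 0.27 and 0.33 over amosite, with unadjusted limma p of 0.0688 and 0.0353.

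Over 44 other measured genes of the pathway, 36 were higher with chrysotile than amosite and 8 lower (median 0.21, 7 higher and 0 lower at an unadjusted p of 0.05). With crocidolite against amosite 36 were higher and 8 lower (median 0.28, 9 higher and 0 lower at an unadjusted p). By limma 0 of the 44 passed an adjusted p in either. With the number, 29 were higher and 15 lower (median 0.13, 13 higher and 3 lower at an unadjusted p), and 1 passed, Gbp4, which fell by 0.78.

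Cxcl10, a chemokine of activated T cells, stood at -0.12 and 0.64 on saline, 0.22 and 1.63 on chrysotile, 1.03 and 1.11 on crocidolite and -0.81 and -0.19 on amosite. Ccl5, another chemokine, stood at -1.20 and -1.65, -0.20 and -0.97, -0.21 and -1.02, and -1.64 and -1.90 on the same groups. Isg20, an exonuclease of viral RNA, stood at 2.52 and 2.52, 3.19 and 3.50, 3.67 and 3.29, and 2.69 and 2.36. For Ccl5 and Isg20 both chrysotile and both crocidolite arrays were above all saline and amosite arrays, while Cxcl10 on chrysotile 1 lay under saline 2. Chrysotile minus amosite was 1.42 for Cxcl10, 1.19 for Ccl5, 0.82 for Isg20, 0.95 for the membrane protein Ifitm3 and 0.62 for Tmem173, the adaptor STING.

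The class I heavy chains H2-K1 and H2-D1 and their transcriptional activator Nlrc5 were higher on number 2, by 0.44, 0.50 and 0.49. Their chrysotile to amosite values were 0.30, 0.46 and 0.17. Herc6, the mouse ligase for Isg15, had 0.84 and 0.78, and the interferon-induced GTPase Gbp6 had 0.68 and -0.02. None of these 5 passed an adjusted p of 0.05 by limma in either comparison.

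In the comparison of chrysotile with amosite, 6 of the 7 leukocyte markers tested were higher, with a median of 0.18. With crocidolite against amosite 4 of the 7 were, with a median of 0.10. The summed level, mostly that of Itgam, was 65.6 and 75.8 on chrysotile, 62.0 and 69.7 on crocidolite and 62.6 and 67.1 on amosite. Mpeg1 had the highest differences of the 7, at 1.27 and 1.30 between chrysotile or crocidolite and amosite. Ptprc had the lowest, at -0.47 and -0.23. Of the 10 adipocyte markers 4 were higher with chrysotile than amosite (median -0.02) and 5 with crocidolite (median 0). Of the 7 preadipocyte markers 4 were higher with chrysotile (median 0.14) and 6 with crocidolite (median 0.16). Ly6a, which interferon also raises, differed by 0.83 and 0.79. Their part in the fibre differences was not tested.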

How the data were processed

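Total RNA of 8 samples (Cy3 label) was read on 1-colour arrays from Agilent. The deposited values are the linear intensity of each spot, background-subtracted by the scanner software, per the file headers (Feature Extraction 10.7.1.1, and 10.7 per the submitters' processing notes). Probe positions are on mm9, per the file headers. The deposited value table holds the same intensity as the scanner files (largest difference 0).

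Controls and outlier-flagged spots (99 to 183 on an array) were removed, repeated spots were averaged, and 9 probes without a value on some array were removed. The log2 intensity was centred on each array's 75th percentile, which was an intensity of 340.1 to 453.4. A probe was kept if well above background on both arrays of at least 1 group (33044 probes), and the brightest stood for its gene. limma 3.58.1 in R 4.3.3 gave two-sided p-values, adjusted by Benjamini-Hochberg over 22918 genes. It used lmFit and eBayes, with all 4 groups in 1 fit (4 residual and 2.22 prior degrees of freedom). In a simulation of chrysotile against saline, 26 of 67 genes changed by a log2 of 1 were recovered. At a log2 of 2 it was 60 of 67, and at 4 it was 64 of 66. False calls there were 15 among 22718 unchanged genes. Simulated replicate number changes of 1, 2 and 4 were recovered for 52 of 67, 63 of 67 and 66 of 66 genes, with 13 false calls. The replicate number was the added term of a second fit (3 residual and 2.08 prior degrees of freedom), since same-numbered arrays deviated together (correlations from 0.25 to 0.46 over 6 group pairs) and 32.3% of the variance lay on a first principal component that parts the numbers. No set test was run.

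The 40 genes, the other lists and the tests were chosen with earlier results of these data known. Values per array are given for genes past the adjusted threshold, for the 6 with the smallest p for each fibre against saline and for the number, and for Isg15, Irf7, Stat2, Ifit1, Psmb8, B2m and Gbp2. Other genes named with array values (Ifnar2, Cxcl10, Ccl5, Isg20) were picked with their values in view. The number of arrays limits the precision. Alternatives were normexp (offset 50), quantile and median scaling, 2 other filters, the mean of a gene's probes, the value table, a trended robust prior, the replicate block, the groups fitted alone, and each array left out. Files were read with the data.table package, version 1.17.8.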

Additional observations from a re-analysis of the deposited data

How the results depend on the processing

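The fits used 2 arrays a group, so a difference must be large to pass, and the 2 saline arrays differ widely in these genes. Alternatives other than leaving out an array kept the member medians within 0.24 to 0.30 (chrysotile against saline), 0.22 to 0.45 (crocidolite), -0.19 to -0.13 (amosite), 0.42 to 0.47 (chrysotile against amosite), 0.42 to 0.57 (crocidolite against amosite) and 0.33 to 0.45 (replicate number). Member calls against saline and between fibres stayed at 0 under all of these and without each array. The cause of the shifts that follow was not tested.

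All genes called against saline became 3 (chrysotile), 2 (crocidolite) and 2 (amosite) with quantile normalization, 2, 1 and 2 with median centring, and 1 for chrysotile with a trended and robust prior. For the replicate number, genes called became 2270, 0, 1576 and 2276, and members called 10, 0, 8 and 10, with normexp, no filter on dim probes, only probes above background on all 8 arrays, and a trended and robust prior.

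Members past an unadjusted p of 0.05 in chrysotile against saline became 1 with normexp, with the mean of all probes, with the trended prior and with the replicate block. In crocidolite against saline they became 0 with no filter and 2 with the replicate block, and in amosite against saline 0 with median centring or no filter and 2 with the trended prior. In chrysotile against amosite they became 11 with normexp, 2 with median centring, 8 with the trended prior, 20 with the replicate block and 13 with the 2 groups fitted alone. In crocidolite against amosite they became 10 with normexp, 3 with quantile normalization or no filter, 9 with the trended prior, 16 with the replicate block and 16 with the 2 groups alone. With the block, 5.48% of all genes were higher in chrysotile against amosite and 5.21% in crocidolite against amosite, where 2.63% and 2.47% were in the main fit. Under the other settings named here the share of all genes was not counted. Those member counts therefore cannot be set against it. The replicate block changed no adjusted call of the 40 genes. In amosite against saline the count with the block stayed at 1, but the gene was Mx1 in place of Rsad2.

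Without each array in turn, genes called ranged from 0 to 65 (chrysotile against saline, the most without saline 2), 0 to 47 (crocidolite, the most without saline 2), 0 to 59 (amosite, the most without saline 2), 0 to 1 (chrysotile against crocidolite), 0 to 1 (chrysotile against amosite), 0 to 0 (crocidolite against amosite) and 0 to 0 (replicate number). Medians ranged from -0.08 to 0.65, -0.11 to 0.62, -0.58 to 0.22, -0.14 to 0.21, 0.27 to 0.67, 0.22 to 0.62 and 0.21 to 0.50 in that order. Members past an unadjusted p ranged from 0 to 23, 0 to 20, 0 to 17, 0 to 0, 1 to 18, 0 to 16 and 11 to 24. Leaving 1 array in a group assumes that it varies like the other groups. For the replicate number, leaving out either array of a group takes that whole group out of the estimate.

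Parp9 against saline with crocidolite turned to -0.09 with the mean of all probes. Usp18 and Iigp1 against saline with amosite ranged from -0.51 to 0.08 and from -0.53 to 0.09 over the arrays left out, positive without saline 2. A block by slide or scan day was not run, since all arrays share 1 slide and 1 day.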

Other observations

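Of the 40 genes, 13 had more than 1 probe, and a dimmer probe did not always follow the brightest one. With the replicate number, the second probe of Trim25 gave 0.01 where the brightest gave 0.45, that of Zbp1 gave -0.28 where the brightest gave 0.77, and that of Cmpk2 gave -0.64 where the brightest gave -0.01. Between chrysotile and amosite the probes of Zbp1 gave 0.91 and 1.38 and those of Cmpk2 0.47 and 0.59, while those of Trim25 gave -0.05 and 0.27. For chrysotile against amosite the brightest probe of Dtx3l gave 0.39 and its dimmer probes 0.20 and -0.01. The brightest probe of Parp9 gave 0.28 for crocidolite against saline and the dimmer one -0.47.

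The median absolute difference between the 2 arrays of a group was larger for these genes than for all genes in every group but crocidolite. The median absolute difference between the arrays was 0.75 over the 40 genes in saline, where it was 0.25 over all genes, 0.31 against 0.19 in chrysotile and 0.33 against 0.17 in amosite. In crocidolite it was 0.17 against 0.18. The SD of the differences was not larger throughout. Over the 40 genes it was 0.481, 0.271, 0.408 and 0.385 in saline, chrysotile, crocidolite and amosite. Over all genes it was 0.543, 0.434, 0.396 and 0.374.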
